A study of Mus musculus with 10 samples.

Results

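The genes examined were those of the aryl hydrocarbon receptor (AhR) pathway, and the question was where p65, the transactivating subunit of NF-κB, occupied them. The 8 members were chosen by their place in the pathway: Ahr, Arnt, Ahrr, Tiparp, Cyp1a1, Cyp1a2, Cyp1b1 and Ido1. All 8 were found among the 21887 protein-coding genes of the gene table. A CUT&Tag peak was counted at a member when it overlapped the gene body extended by 10 kb on each side.

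AhR is a receptor of the cytoplasm that binds small planar molecules, among them indoles and other products of tryptophan. With ligand it moves to the nucleus, pairs with ARNT and binds xenobiotic response elements (XRE, core GCGTG) in front of genes such as those of the CYP1 enzymes. AHRR competes with it for ARNT, and TIPARP modifies it with ADP-ribose, so that both restrain the receptor. Skatole is an indole of bacterial origin, and NF-κB and AhR signalling are known to meet in macrophages.

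RAW264.7, a mouse macrophage-like line derived from an Abelson virus tumour, received for 12 h the solvent DMSO, DMSO with lipopolysaccharide (LPS, which activates macrophages), or LPS with skatole (LPS+Skatole). Each group had 3 libraries of 200000 cells, and a control made without primary antibody was not analysed here. An antibody guides a transposase to p65 in this assay; the labels speak of p65 and the methods of its phosphorylated form, so the form captured is open. Nothing states that libraries came from separate cultures, so p-values measure the spread among these libraries only.

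The lists held 37551 to 43450 peaks in DMSO, 55637 to 63498 in LPS and 78136 to 80153 in LPS+Skatole. Depth was read as the genome background, the fragments per position expected away from peaks, and was 1.09 to 1.40 in DMSO, 2.23 to 2.34 in LPS and 2.26 to 2.39 in LPS+Skatole. A summit needed at least 8 or 9 fragments to be called in DMSO and 11 in the other libraries, which is 6.44 to 7.34 times the background in DMSO and 4.59 to 4.94 times in the others. Depth thus set DMSO apart from the other groups and overlapped between LPS and LPS+Skatole, while list length differed among all groups, and the peak totals, the numbers at Arnt, Tiparp, Ahrr and Cyp1a1 and the gained or lost regions are also given in lists of equal length, where each library keeps the same number of top-ranked peaks. Peak height is given below as enrichment, the summit count divided by the genome background of its library, and rank as a percentile, the share of the library's own list with a smaller −log10 p.

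The promoters of 5 members are shown because they run from starts with a p65 peak in all 9 libraries (Tiparp, Arnt) through starts with a peak in few (Cyp1b1, Ahrr) to a start without any (Cyp1a1). Each run is the 250 bases before the transcription start, from RefSeq on GRCm38.p6, written 5′ to 3′ on the gene's own strand, with the XRE core in capitals (GCGTG, or CACGC where it lies on the other strand).

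Tiparp: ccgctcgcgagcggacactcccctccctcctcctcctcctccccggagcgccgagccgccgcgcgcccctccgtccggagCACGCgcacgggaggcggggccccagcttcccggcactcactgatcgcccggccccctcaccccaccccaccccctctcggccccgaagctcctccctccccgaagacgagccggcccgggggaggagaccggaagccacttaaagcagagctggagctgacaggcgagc

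Arnt: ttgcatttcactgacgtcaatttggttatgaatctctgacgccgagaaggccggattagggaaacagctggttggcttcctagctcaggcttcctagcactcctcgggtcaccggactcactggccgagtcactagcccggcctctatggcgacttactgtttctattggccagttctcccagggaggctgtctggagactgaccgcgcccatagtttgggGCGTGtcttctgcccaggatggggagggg

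Ahrr: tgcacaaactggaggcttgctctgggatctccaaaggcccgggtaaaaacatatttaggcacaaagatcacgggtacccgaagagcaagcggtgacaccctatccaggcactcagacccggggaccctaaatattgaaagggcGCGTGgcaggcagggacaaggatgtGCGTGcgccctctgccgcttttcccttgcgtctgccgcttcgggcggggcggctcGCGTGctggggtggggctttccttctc

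Cyp1a1: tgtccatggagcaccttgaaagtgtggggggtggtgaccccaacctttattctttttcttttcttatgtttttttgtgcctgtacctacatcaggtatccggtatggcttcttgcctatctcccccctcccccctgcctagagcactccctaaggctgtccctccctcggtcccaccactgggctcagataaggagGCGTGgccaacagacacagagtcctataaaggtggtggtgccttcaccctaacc

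Cyp1b1: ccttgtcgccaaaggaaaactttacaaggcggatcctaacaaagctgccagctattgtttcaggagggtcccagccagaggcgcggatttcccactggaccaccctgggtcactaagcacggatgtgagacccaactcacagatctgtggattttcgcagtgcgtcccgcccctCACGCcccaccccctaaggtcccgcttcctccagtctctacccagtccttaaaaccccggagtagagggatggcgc

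They lie at chr3:65528197-65528446 (Tiparp, plus strand), chr3:95434140-95434389 (Arnt, plus), chr13:74292332-74292581 (Ahrr, minus), chr9:57697363-57697612 (Cyp1a1, plus) and chr17:79715062-79715311 (Cyp1b1, minus). The promoter table gave 6 of the 8 members, these and Cyp1a2, and the text gives no start for Ahr and Ido1. The XRE core was searched on both strands. It began 170 bases before the start in Tiparp, 29 in Arnt, 54 in Cyp1a1 and 76 in Cyp1b1, and at 107, 82 and 27 bases in Ahrr, while the Cyp1a2 run did not hold it. Of all 32851 promoters of this length, 28.2% held the core. The longer element TNGCGTG, which contains the core, was found only in Ahrr and in 4.10% of all promoters. The NF-κB consensus of 10 bases was also found only in Ahrr, as GGGGCTTTCC, and in 3.90% of all promoters. A match of letters is no evidence of a bound site, and its absence says nothing about the factor.

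p65 peaks at the pathway genes lay mostly at Arnt and, in LPS+Skatole, also at Tiparp, with few at Ahr, Ido1 and the CYP1 genes. Counting each peak once, the members held 15, 13 and 17 peaks under DMSO, 24, 19 and 27 under LPS and 28, 31 and 29 under LPS+Skatole. No LPS library had as few as a DMSO library, and no LPS+Skatole library as few as an LPS library. The means were 15 ± 2, 23.3 ± 4.04 and 29.3 ± 1.53 (SD, n = 3), ratios of 1.56 for LPS over DMSO, 1.26 for LPS+Skatole over LPS and 1.96 for LPS+Skatole over DMSO. Per 10000 peaks of the list, however, the means were 3.71 ± 0.629, 3.95 ± 0.586 and 3.72 ± 0.220 (SD, n = 3), and the libraries overlapped. In lists of equal length the ratios were 0.976, 1.22 and 1.19. The number of members with a peak was 5, 5 and 7 in DMSO, 6, 6 and 7 in LPS and 5, 7 and 6 in LPS+Skatole, and likewise overlapped.

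**Figure D1:**
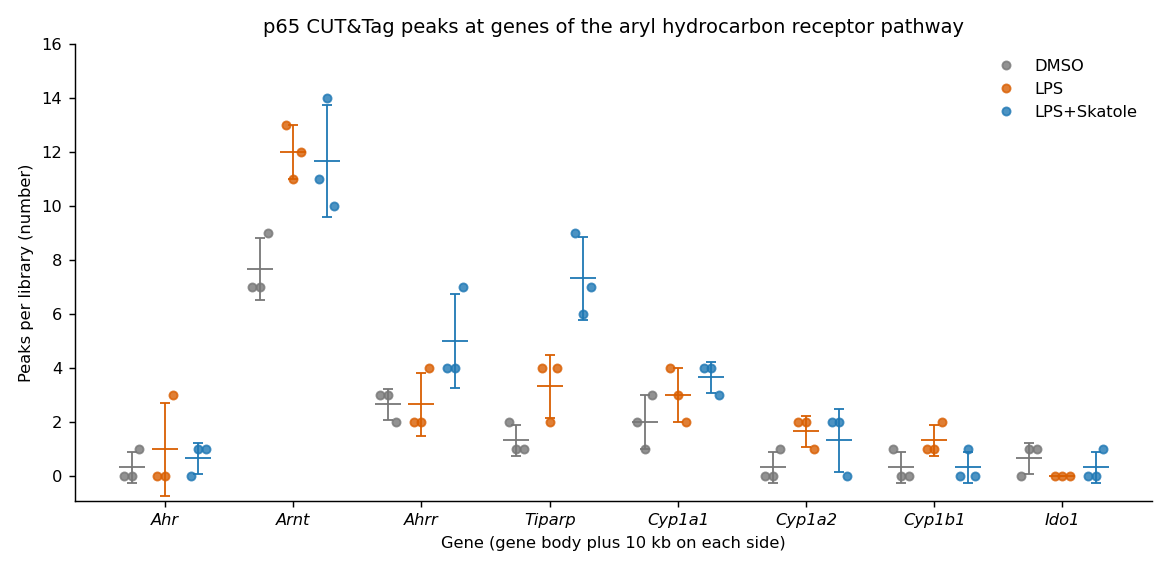
Number of p65 CUT&Tag peaks per library (vertical axis) at each of the 8 genes with 10 kb on each side (horizontal axis); points are libraries, horizontal bars group means and vertical bars SD, n = 3. Arnt had 7 to 9 peaks in DMSO, 11 to 13 in LPS and 10 to 14 in LPS+Skatole. Over all libraries Ahr had 0 to 3 and Ido1 0 to 1. Tiparp had 1 or 2 peaks in DMSO and 6 to 9 in LPS+Skatole.

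Peak numbers were compared gene by gene over the 3 groups with an exact permutation test (280 divisions of the libraries, smallest possible p-value 0.00357), adjusted over all 19505 protein-coding genes with a peak. Of the members, 2 had an unadjusted p-value under 0.05, Arnt and Tiparp, where 15.8% of all genes did, and 0 had an adjusted one, where 0% of all genes did. LPS exceeded DMSO with no overlap of libraries at 1 of 8 members, Arnt (12.2% of all genes). LPS+Skatole exceeded LPS at 1 member, Tiparp (9.10% of all genes), and exceeded DMSO at 3, Arnt, Ahrr and Tiparp (25.4% of all genes). No member was lower without overlap in LPS than in DMSO (0.364% of all genes), in LPS+Skatole than in LPS (0.774%) or in LPS+Skatole than in DMSO (0.174%). For 8 genes, the counts lie near what these shares of all genes give. Over members the median difference was 1.00 peak (LPS minus DMSO), 0 (LPS+Skatole minus LPS) and 1.33 (LPS+Skatole minus DMSO), beside 0.667, 0.333 and 1.00 over all genes.

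Ahr, the receptor (chr12:35497979-35534989), had hardly any p65 peak. It had 0, 0 and 1 peaks in DMSO, 0, 0 and 3 in LPS and 0, 1 and 1 in LPS+Skatole, and the groups overlapped (joint exact permutation test, p = 1). Each of its 6 peaks lay in a region of its own, called in 1 library. They were weak, with summits of 9 to 21 fragments and percentiles of 1.93 to 48.8. The strongest lay inside the gene in LPS+Skatole replicate 3 at chr12:35532015-35532448, with 21 fragments. Among 2234 genes of like length (0.8 to 1.25 times its own), Ahr stood at percentiles 16.5, 20.7 and 11.0 by mean peak number under DMSO, LPS and LPS+Skatole.

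Arnt, the partner that AhR needs to bind DNA (chr3:95434367-95497240), held the most peaks of the members. There were 7, 7 and 9 in DMSO, 13, 11 and 12 in LPS and 11, 14 and 10 in LPS+Skatole. Every LPS and LPS+Skatole library exceeded every DMSO library, while LPS and LPS+Skatole overlapped. The means were 7.67 ± 1.15, 12.0 ± 1.00 and 11.7 ± 2.08 (SD, n = 3; joint exact permutation test, p = 0.0393, adjusted p = 0.281 over all genes). In lists of equal length the libraries had 7, 7 and 8, then 9, 10 and 7, then 8, 9 and 6 peaks, and they overlapped (exact permutation test, p = 0.55). Among 1666 genes of like length Arnt stood at percentiles 93.9, 96.3 and 92.0 in DMSO, LPS and LPS+Skatole. Its 25 regions, formed by merging overlapping peaks of the 9 lists, included 8 that at least 5 libraries shared.

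**Figure D2:**
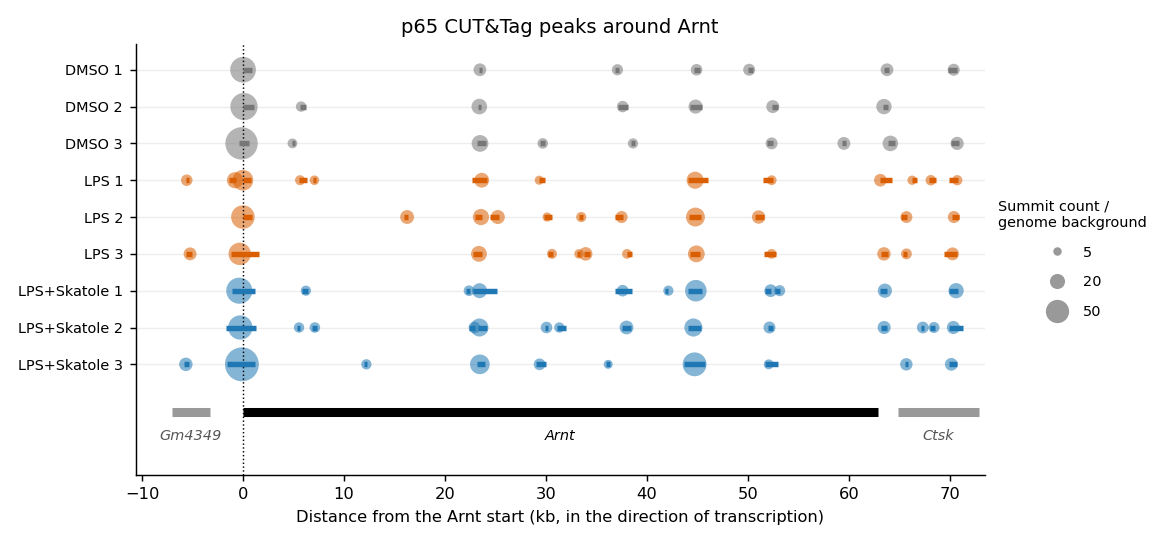
Peaks around Arnt by library (rows) against distance from the Arnt start in kb; thick bars are peaks, discs sit on summits and grow with summit count over genome background, and gene bodies are drawn below. Peaks at the start and near 23.5 kb recurred in all 9 libraries, and the disc at 44.8 kb was larger in LPS and LPS+Skatole than in DMSO.

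The highest Arnt region covered the start (chr3:95432664-95436016, median summit 115 bp before it) and was called in all 9 libraries. Its enrichment was 61.5, 69.4 and 98.6 in DMSO, 39.2, 51.2 and 46.1 in LPS and 63.3, 54.9 and 108 in LPS+Skatole. All LPS values lay under all others. Its percentile lay between 0.485 and 79.6, since the p-value behind the rank is taken against the local background, which was 22.6 to 155 fragments at the highest peak of each library. The log2 difference of LPS from DMSO, centred on the library median, was -0.53 (SE 0.23, limma, adjusted p = 0.257), and that of LPS+Skatole from LPS was 0.39 (SE 0.23, adjusted p = 0.553). Neither passed adjustment over the 13824 regions called in all libraries, so the order of the groups is a description.

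Within the gene, a region 23.5 kb after the start (chr3:95456442-95459709) was likewise called in all 9 libraries. Its enrichment was 13.8, 21.5 and 25.0 in DMSO, 19.2, 23.4 and 22.2 in LPS and 19.7, 29.2 and 35.1 in LPS+Skatole. The groups overlapped (limma, LPS+Skatole against DMSO, log2 difference 0.40, SE 0.30, adjusted p = 0.444). Whether it lies in an exon or an intron is not given, since the gene table has spans only.

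The clearest difference at a member was another site in the Arnt body, 44.8 kb after the start (chr3:95478064-95480429). Its summit count was 12 and 24 in DMSO replicates 1 and 2 with no peak in replicate 3, 60, 72 and 59 in LPS, and 100, 67 and 126 in LPS+Skatole. Enrichment was accordingly 11.0 and 17.2 in DMSO, 26.1, 32.3 and 25.2 in LPS and 42.7, 29.6 and 52.6 in LPS+Skatole, so every LPS and LPS+Skatole library stood above every DMSO library. The percentile was 35.5 and 70.8 in DMSO, 90.5 to 94.5 in LPS and 91.7 to 98.3 in LPS+Skatole.

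This region lacks a value in DMSO replicate 3, which was set to the floor of 7.34, the highest of the lowest callable enrichments, in a fit over 29833 regions called in at least 5 libraries. That fit was added after the values had been seen. A region could enter it through LPS and LPS+Skatole libraries alone but not through DMSO libraries alone. Its entry rule thus favours regions higher than in DMSO. Over all regions it called 773 higher and 88 lower in LPS than in DMSO, and 2372 higher and 594 lower in LPS+Skatole than in DMSO. LPS exceeded DMSO by 1.51 on the log2 scale (SE 0.36, limma, adjusted p = 0.0374), and LPS+Skatole exceeded DMSO by 1.78 (SE 0.36, adjusted p = 0.00915). LPS+Skatole and LPS overlapped, with a difference of 0.27 (SE 0.36, adjusted p = 0.856). The call of LPS+Skatole over DMSO held in each fit that left out 1 library (adjusted p = 0.00441 to 0.0453). The call of LPS over DMSO was lost without centring (log2 difference 1.31, adjusted p = 0.0749) and with the replicate number as a block (limma, adjusted p = 0.0621). With 1 library left out it held without DMSO replicate 2 (adjusted p = 0.0149) or LPS+Skatole replicate 2 (0.0461) and was lost without DMSO replicate 1 (0.0752) or 3 (0.0921), LPS replicate 1 (0.113), 2 (0.140) or 3 (0.0901), or LPS+Skatole replicate 1 (0.0625) or 3 (0.0540). The exact joint permutation test gave p = 0.0179 and an adjusted p of 0.179.

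Peaks after the end of Arnt lay at Ctsk, the gene of the protease cathepsin K, which starts within the window. A region 1325 bp before the Ctsk start (chr3:95497445-95498924) was called in 7 libraries with enrichment of 13.5 to 21.3. Another, 5572 bp into Ctsk (chr3:95503801-95505660), was called in 8 libraries with enrichment of 8.28 to 20.5. Neither passed in any contrast of the fit over regions of at least 5 libraries (limma, adjusted p = 0.364 or more). With the window cut to the gene body, Arnt had 5 to 7 peaks in DMSO, 7 to 9 in LPS and 7 to 10 in LPS+Skatole, and the groups touched (exact permutation test, p = 0.111).

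The genes most like Arnt were sought by the Euclidean distance of log2(1 + summed enrichment) over the 9 libraries. Cdc42ep4 came closest (distance 0.326), then Sbno1 (0.421) and Pip5kl1 (0.447). Summed enrichment at Arnt was 169 ± 38.3 under DMSO, 194 ± 11.4 under LPS and 245 ± 24.1 under LPS+Skatole (SD, n = 3). At Cdc42ep4 it was 167 ± 13.3, 193 ± 18.3 and 239 ± 16.6 in the same order. These sums were taken from lists of unequal length and were not centred. Over regions called in all 9 libraries, the library medians differed by -0.20 (LPS against DMSO) and 0.28 (LPS+Skatole against LPS) on the log2 scale. The sums therefore do not show a change particular to Arnt.

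Tiparp, an ADP-ribosyltransferase induced by AhR that dampens the receptor (chr3:65528447-65555518), showed the largest difference in peak number between LPS and LPS+Skatole among the members. It had 2, 1 and 1 peaks in DMSO, 4, 2 and 4 in LPS and 9, 6 and 7 in LPS+Skatole. Every LPS+Skatole library exceeded every LPS library, while LPS and DMSO met at 2 peaks. The means were 1.33 ± 0.577, 3.33 ± 1.15 and 7.33 ± 1.53 (SD, n = 3; joint exact permutation test, p = 0.00714, adjusted p = 0.259 over all genes). For LPS+Skatole against LPS the exact two-sided permutation test gave p = 0.1, the smallest that 3 against 3 libraries allow, and for LPS against DMSO it gave p = 0.2. Among 2522 genes of like length Tiparp moved from percentile 37.0 in DMSO to 57.5 in LPS and 87.9 in LPS+Skatole.

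**Figure D3:**
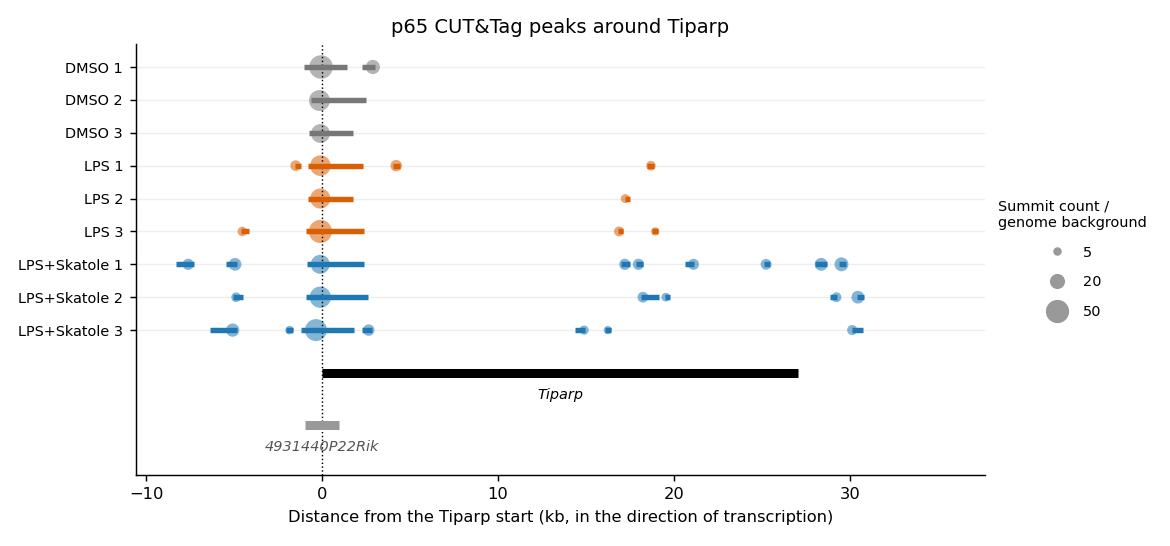
Peaks around Tiparp by library (rows) against distance from the Tiparp start in kb; thick bars are peaks, discs sit on summits and grow with summit count over genome background, and gene bodies are drawn below. The peak at the start was present in all 9 libraries, while peaks after the gene end were present, in these full lists, only in the 3 LPS+Skatole libraries.

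The start of Tiparp carried 1 strong peak in every library (chr3:65527245-65531468, median summit 108 bp before the start, within the XRE-bearing run printed above). Its enrichment was 51.4, 40.0 and 32.4 in DMSO, 38.8, 36.8 and 49.5 in LPS and 32.9, 41.6 and 44.3 in LPS+Skatole, so the groups overlapped. It ranked 1656, 2914 and 4642 from the top in DMSO, 1882.5, 2286 and 1151 in LPS and 4973, 2920 and 2309 in LPS+Skatole, where a fraction marks a tie. The percentiles were 88.7 to 95.6, 96.1 to 98.2 and 93.7 to 97.1, the highest of any member peak in DMSO and LPS. The log2 difference was 0.23 for LPS against DMSO (SE 0.24, limma, adjusted p = 0.734) and -0.35 for LPS+Skatole against LPS (SE 0.24, adjusted p = 0.613). The summit also lies in 4931440P22Rik, a lncRNA that overlaps the start, and the assay does not tell the 2 genes apart. Peaks with a summit within 1 kb of the start were also present in all 9 libraries at Arnt and at 29.8% of all 21263 protein-coding starts.

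The added Tiparp peaks lay away from the start, with 11 to 39 fragments and percentiles of 2.74 to 75.8 in LPS+Skatole. Before the gene, summits numbered 1, 1 and 1 in DMSO, 2, 1 and 2 in LPS and 3, 2 and 3 in LPS+Skatole. Within it they numbered 1, 0 and 0, then 2, 1 and 2, then 4, 2 and 3. After its end there were 0, 0 and 0, then 0, 0 and 0, then 2, 2 and 1. In the full lists the peaks after the end thus appeared in each LPS+Skatole library and in no other. They lay at differing positions, so that at most 2 libraries shared a region there (chr3:65558569-65559273, 31 and 19 fragments in LPS+Skatole replicates 2 and 3). The strongest of them, in LPS+Skatole replicate 1, had 39 fragments and stood at percentile 73.2. The peak after the end in LPS+Skatole replicate 3 ranked 58928.5 from the top, with a −log10 p of 8.33. It therefore fell out of lists of equal length and of peaks with −log10 p of at least 10.

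Upstream, 1 Tiparp region met the rule for a gain, a peak in each of 3 libraries of a group with 0 in the other. It lay 4926 bp before the start (chr3:65522090-65524256) and was called in 0 DMSO libraries, in LPS replicate 3 with 16 fragments, and in the LPS+Skatole libraries with 32, 16 and 36. It was therefore gained in LPS+Skatole against DMSO but not against LPS.

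The separation of LPS+Skatole from LPS at Tiparp was not seen in most settings. It held with 50 kb windows and where the summit had to lie inside the window. LPS and LPS+Skatole touched with gene bodies, 3 kb windows, −log10 p of at least 10 and summits of at least 8 times the genome background. In lists of equal length the peak number was 2, 1 and 1 in DMSO, 3, 1 and 1 in LPS and 8, 2 and 3 in LPS+Skatole, with means of 1.33 ± 0.577, 1.67 ± 1.15 and 4.33 ± 3.21 (SD, n = 3), and LPS and LPS+Skatole overlapped (exact permutation test, p = 0.179). Among summits of at least 8 times the genome background it was 2, 1 and 1, then 3, 1 and 1, then 9, 3 and 3 (p = 0.107, same exact permutation test), with LPS+Skatole replicate 1 well above the other libraries.

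Ahrr, the repressor that competes for ARNT (chr13:74211118-74292331), had few peaks of its own. Its window held 3, 3 and 2 peaks in DMSO, 2, 2 and 4 in LPS and 4, 4 and 7 in LPS+Skatole. LPS+Skatole exceeded DMSO without overlap and overlapped LPS (joint exact permutation test, p = 0.129). With list length made equal the numbers were 3, 3 and 2, then 1, 2 and 1, then 1, 4 and 3, and LPS+Skatole overlapped DMSO (exact permutation test, p = 0.282). The strongest region of the window (chr13:74208194-74209139) lay inside Exoc3, an exocyst gene, 25 bp after the start used for it (which lies within its span), and 83.7 kb from the Ahrr start. Its enrichment was 45.9, 47.2 and 36.8 in DMSO, 31.5 and 31.1 in LPS replicates 2 and 3, and 27.4, 38.9 and 37.6 in LPS+Skatole, with no peak in LPS replicate 1. No contrast passed the test (limma with the absent value at the floor, adjusted p = 0.259 or more).

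Inside Ahrr, 1 region was called in 7 libraries (chr13:74245457-74246610, 46.5 kb after the start). Enrichment was 9.18, 12.9 and 13.2 in DMSO, 7.41 and 7.68 in LPS replicates 1 and 3, and 16.8 and 14.6 in LPS+Skatole replicates 2 and 3. LPS replicate 2 and LPS+Skatole replicate 1 had no peak there. No contrast passed at this region (limma with the absent values at the floor, adjusted p = 0.526 or more). The promoter printed above, the only one with the NF-κB letters, had a summit within 1 kb of the start in 1 library, LPS replicate 2, with 19 fragments. Summits outside the gene beyond its end, on the Exoc3 side, numbered 1, 1 and 1 in DMSO, 0, 1 and 1 in LPS and 2, 2 and 4 in LPS+Skatole, and within Ahrr 2, 2 and 1, then 2, 0 and 2, then 2, 2 and 3.

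Cyp1a1 and Cyp1a2, the monooxygenases that serve as the classical readout of AhR, lie next to each other on chromosome 9 (Cyp1a1 at chr9:57687928-57703824, Cyp1a2 at chr9:57676937-57683655), and their windows share peaks. Cyp1a1 had 2, 1 and 3 peaks in DMSO, 4, 3 and 2 in LPS and 4, 4 and 3 in LPS+Skatole. The groups overlapped (joint exact permutation test, p = 0.196). Cyp1a2 had 0, 0 and 1, then 2, 2 and 1, then 2, 2 and 0 peaks, with no summit inside its body in any library (p = 0.293, same exact permutation test). No library had a summit within 1 kb of the start of either gene, which held for 41.9% of all protein-coding starts.

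The recurrent peak in the Cyp1a1 window belonged by position to its neighbour. It was called in all 9 libraries at chr9:57707956-57709824, 52 bp before the start of Edc3, an mRNA-decapping gene, and 10.9 kb from the Cyp1a1 start. Its enrichment was 21.1, 29.3 and 17.7 in DMSO, 29.2, 27.4 and 20.1 in LPS and 21.4, 23.0 and 38.4 in LPS+Skatole, and the groups overlapped (limma, adjusted p = 0.624 or more in each contrast). The summit count was 23 to 92, at percentiles of 70.0 to 95.7.

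Apart from it, each region in the windows of the pair was called in 1 to 3 libraries, at percentiles of at most 78.3. Within the Cyp1a1 span there were 0, 0 and 0 summits in DMSO, 1, 2 and 1 in LPS and 2, 2 and 1 in LPS+Skatole. The LPS and LPS+Skatole libraries thus each had at least 1 and the DMSO libraries none, with a joint exact permutation test of p = 0.0679 for peaks overlapping the gene body. By such peaks 8.05% of all genes had every LPS library, and 16.8% every LPS+Skatole library, above every DMSO library. A region over the upstream end of the span (chr9:57687521-57688609) was shared by LPS replicates 1 and 2 and LPS+Skatole replicate 1, with 17, 35 and 25 fragments. The Cyp1a1 start used above (chr9, base 57697613) lies inside the span, so the 1 kb count does not cover this end. In lists of equal length the Cyp1a1 window, with the Edc3 peak, had 1 to 2 peaks in DMSO, 1 to 2 in LPS and 1 to 3 in LPS+Skatole. The summits within the span ranked 42100 in LPS replicate 3, 41981.5 and 64365.5 in LPS+Skatole replicate 2 and 60371.5 in LPS+Skatole replicate 3. All of these fell outside the 37551 peaks kept, so the presence in each LPS and LPS+Skatole library holds for the full lists only.

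**Figure D4:**
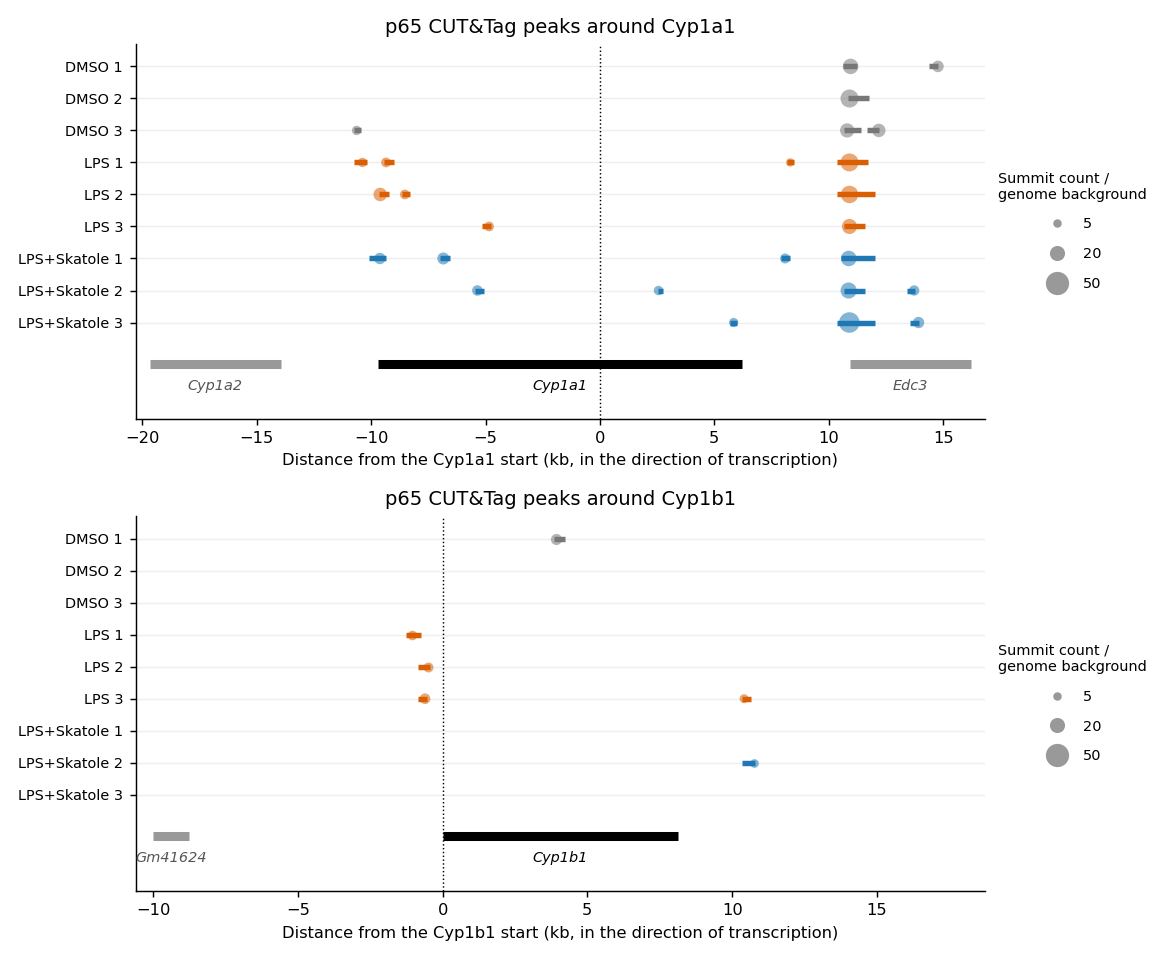
Peaks around Cyp1a1 (upper panel) and Cyp1b1 (lower panel) by library (rows) against distance from the start of each gene in kb; thick bars are peaks, discs sit on summits and grow with summit count over genome background. The peak shared by all 9 libraries in the upper panel stands at Edc3, and the peak before Cyp1b1 was called in the 3 LPS libraries only.

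Cyp1b1, the third enzyme of the family (chr17:79706940-79715061), had the only member region that was called in all LPS libraries and in no other. It had 1, 0 and 0 peaks in DMSO, 1, 1 and 2 in LPS and 0, 1 and 0 in LPS+Skatole (joint exact permutation test, p = 0.271). The region (chr17:79715485-79716323, median summit 609 bp before the start) lies just upstream of the printed promoter. Its summits had 16, 17 and 21 fragments in the LPS libraries, with enrichment of 6.97, 7.64 and 8.96 and percentiles of 28.1, 35.2 and 51.1, and they spread over 523 bp. These are low values: a summit of 11 fragments was the least that could be called in LPS and LPS+Skatole libraries, and among peaks with −log10 p of at least 10 the region was no longer in all LPS libraries.

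Over all members, 13 regions could be judged as gained or lost in LPS against DMSO, of which 1 was gained, that of Cyp1b1 (7.61% of 30406 regions), and 0 were lost (0.316%). In LPS+Skatole against LPS, 0 of 20 were gained (2.97% of 40133 regions) and 1 was lost, again that of Cyp1b1 (0.655%). In LPS+Skatole against DMSO, 1 of 14 was gained, that of Tiparp (12.7% of 34128 regions), and 0 were lost (0.234%). No single region can reach a p-value under 0.1 with 3 libraries against 3. In lists of equal length neither region met the rule, and 1 other region was lost in LPS against DMSO.

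Ido1, which opens the kynurenine route of tryptophan breakdown (chr8:24584133-24596952), had the fewest peaks. It had 0, 1 and 1 in DMSO, 0, 0 and 0 in LPS and 0, 0 and 1 in LPS+Skatole (joint exact permutation test, p = 0.679). A region inside the gene (chr8:24594951-24595701) was called in DMSO replicate 3 with 18 fragments and in LPS+Skatole replicate 3 with 11, the least that can be called there. Among 2284 genes of like length Ido1 stood at percentiles 26.2, 4.93 and 7.62 in DMSO, LPS and LPS+Skatole.

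Most member regions did not recur. The 81 of them included 49 (60.5%) called in 1 library and 4 called in all 9, the starts of Arnt and Tiparp, the Arnt site at 23.5 kb and the Edc3 start. Of all 235070 regions, 71.3% were called in 1 library and 5.88% in all 9. Among the 4 regions, limma called 0 in LPS against DMSO (1.79% of 13824 regions), 0 in LPS+Skatole against LPS (0.166%) and 0 in LPS+Skatole against DMSO (8.40%) at an adjusted p under 0.05. At an unadjusted p under 0.05 there was 1, the Arnt start in LPS against DMSO, and the exact permutation test called 0. The library medians of enrichment over these regions differed by -0.20 on the log2 scale for LPS against DMSO and by 0.28 for LPS+Skatole against LPS, which centring removes. In the added fit of 12 member regions, 1 was called in LPS against DMSO (2.89% of 29833 regions), 0 in LPS+Skatole against LPS (0.0369%) and 1 in LPS+Skatole against DMSO (9.94%), in each case the Arnt region at 44.8 kb.

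**Figure D5:**
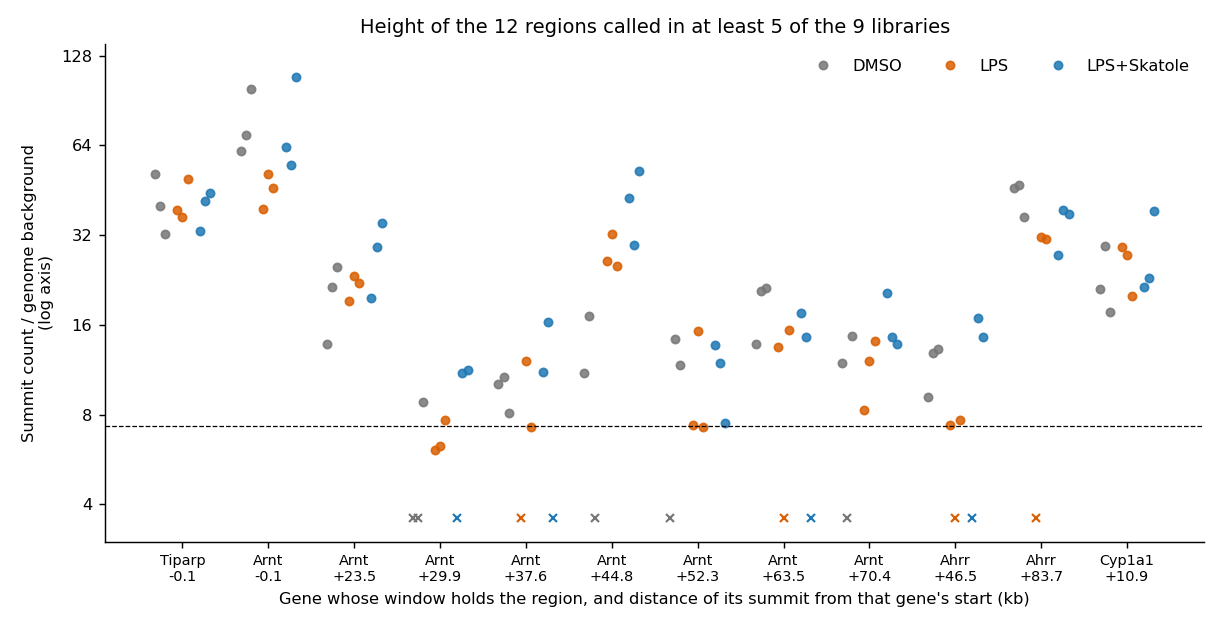
Summit count over genome background (log axis) in each library for the 12 member regions called in at least 5 libraries, labelled by member gene and distance from its start in kb; crosses mark libraries with no peak and the dashed line is the floor of 7.34. Groups overlap in most regions, and at the Arnt region at 44.8 kb all LPS and LPS+Skatole points lie above the DMSO points.

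The wider pathway was followed in 41 other genes in 4 lists. All 41 had a peak in at least 1 library and 30 in all 9. By peak number, 9 had an unadjusted p-value under 0.05 in the joint exact permutation test, as 15.8% of all genes did, and 0 an adjusted one. LPS exceeded DMSO without overlap at 3 genes, LPS+Skatole exceeded LPS at 5 and DMSO at 14, and none was lower. As shares of the 19505 genes, the same counts stood at 12.2%, 9.10% and 25.4%. With list length made equal, LPS exceeded DMSO at 0 of the 41 genes (2.72% of all genes). LPS+Skatole exceeded LPS at 0 (1.53%) and DMSO at 1, Src (3.14%). In LPS+Skatole 2 were lower than in DMSO (3.13%), and 0 of the 41 had an unadjusted p-value under 0.05 in the exact permutation test. The separations by peak number described next are those of the full lists.

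Among the 8 partners of the receptor complex, 1 gene had more peaks in every LPS than in every DMSO library, and 2 had more in every LPS+Skatole than in every LPS library. Src, the kinase held in the complex, had 3, 2 and 2 peaks in DMSO, 9, 8 and 10 in LPS and 8, 9 and 9 in LPS+Skatole (exact permutation test, p = 0.0357, adjusted p = 0.259). Arnt2, the paralog of Arnt, had 0, 1 and 0, then 1, 0 and 2, then 6, 6 and 4 (exact permutation test, p = 0.025, adjusted p = 0.259). Hsp90aa1, a chaperone of the unliganded receptor, had 3, 5 and 5, then 4, 4 and 5, then 6, 8 and 6.

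Of the 9 coactivators and corepressors, 2 separated LPS+Skatole from LPS, and all 9 had peaks in every library. Nrip1, a corepressor of nuclear receptors, had 7, 6 and 6 peaks in DMSO, 5, 7 and 5 in LPS and 9, 9 and 11 in LPS+Skatole. With list length made equal it turned, to 7, 6 and 6, then 3, 6 and 5, then 5, 3 and 2. LPS+Skatole then lay under DMSO without overlap, as at 3.13% of all genes. The same held at Ncor1, with 10, 10 and 9, then 5, 8 and 10, then 8, 6 and 4. Crebbp, an acetyltransferase, had 6, 8 and 4, then 8, 8 and 6, then 12, 10 and 11. Ncor1, Ncoa1 and Ncoa3 had 1 of 7, 1 of 2 and 2 of 11 judged regions gained in LPS against DMSO, with overlapping peak numbers. These were the 4 gains among 61 regions judged in the list, beside 7.61% of all regions.

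Of the 12 other AhR target genes, 1 separated LPS from DMSO and 1 separated LPS+Skatole from LPS. Slc7a5, an amino acid transporter, had 5, 3 and 4 peaks in DMSO, 6, 6 and 8 in LPS and 6, 5 and 8 in LPS+Skatole. Nqo1, named after its values were seen, had 1, 1 and 2, then 1, 0 and 2, then 3 in each LPS+Skatole library. With list length made equal it had 1, 1 and 2, then 1, 0 and 0, then 1, 2 and 2, and LPS and LPS+Skatole touched. In the full lists, 2 regions were gained in LPS+Skatole against LPS, both at Nqo1. They were 2 of 33 regions judged in this list and 2 of 163 over the 4 lists, beside 2.97% of all regions. Of the 12 tryptophan and kynurenine enzymes none separated any pair of groups. Their median difference was 0.333 peaks (LPS minus DMSO) and 0.333 peaks (LPS+Skatole minus LPS), beside 0.667 and 0.333 over all genes.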

How the data were processed

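The authors called peaks in each library and deposited narrowPeak lists with a score, a fold (a ratio of summit to local background), a −log10 p and a −log10 q; score and q were not used. The caller is not given in the sources used here; the submitters' processing notes name mm10, fastp 0.20.1, HISAT2 2.1.0 and StringTie 2.0 without roles. Summit counts were recovered from the deposited fold and −log10 p (whole within 0.05 for 99.99% of peaks or more), and the lowest background of a list was its genome background. Gene spans and starts were RefSeq GRCm38.p6; 21.1% of starts had a summit within 250 bp, against 2.40% and 2.27% after shifts of 10 kb. Members and gene lists were chosen with earlier results of these data known. Tests were exact permutation tests and limma 3.58.1 (R 4.3.3) with trend on log2 enrichment, centred by library, with Benjamini-Hochberg adjustment over all genes or regions, and were tested on simulated data. All 8 members were described. Other pathway genes were named where peak numbers of LPS did not overlap those of DMSO or LPS+Skatole or where a region was gained or lost, at most 10 by difference of means. Of the 14 that qualified, Nqo1, Cyp2s1, Scin and Haao fell beyond that limit. Another gene that the rule names is not reported here. Windows, thresholds, list length, region building, scaling, blocks and left-out libraries were varied.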

Additional observations from a re-analysis of the deposited data

How the results depend on the processing

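The fit over regions of at least 5 libraries and its alternatives were added after the data had been seen. The ratio of peak totals for LPS over DMSO, 1.56 as reported, turned to 0.976 with equal list length and to 0.929 with summits of at least 8 times the genome background. In the latter setting the ratio was 1.77 for LPS+Skatole over LPS and 1.64 for LPS+Skatole over DMSO, and LPS had 0.667 fewer members with a peak than DMSO (-0.667). LPS+Skatole over DMSO was 1.19 with equal list length and 2.48 with −log10 p of at least 10. With gene bodies alone, LPS+Skatole had 1.33 more members with a peak than LPS.

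Members higher without overlap in LPS than in DMSO numbered 3 with 50 kb windows (26.8% of all genes) and with −log10 p of at least 10 (11.1%), and 0 with equal list length (2.72%) and at 8 times the background (4.72%). For LPS+Skatole over LPS the number was 0 with gene bodies, 3 kb windows, −log10 p of at least 10, equal list length and 8 times the background (6.13%, 7.36%, 6.88%, 1.53% and 6.61% of all genes), and with 50 kb windows 1 member was lower (0.497%). For LPS+Skatole over DMSO it was 1 with 3 kb windows (19.5%), 5 with 50 kb windows (51.3%), 0 with equal list length (3.14%) and 1 at 8 times the background (12.1%). Leaving out each library gave 1 to 3, 1 to 2 and 3 to 5 members higher for LPS over DMSO, LPS+Skatole over LPS and LPS+Skatole over DMSO, with 0 to 1 lower in each of the former pairs. A left-out library weakens the rule for every gene. The shares of all genes were not computed with a library left out, so these counts cannot be judged against them.

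The gains in LPS and in LPS+Skatole against DMSO and the loss in LPS+Skatole against LPS were 0 with −log10 p of at least 10, with equal list length and at 8 times the background; in the last 2 settings 1 region was lost in LPS against DMSO. With at least 2 of 3 libraries, 7 of 21 member regions were gained in LPS (19.7% of all regions) and 5 of 20 in LPS+Skatole (27.7%) against DMSO, and of 29 in LPS+Skatole against LPS 3 were gained (12.8%) and 2 lost (4.78%). Leaving out each library, which weakens the rule, gave 1 to 4 and 1 to 3 gained against DMSO in LPS and LPS+Skatole, and 0 to 2 gained and 1 to 2 lost in LPS+Skatole against LPS. For these counts the shares of all regions were not computed, so they cannot be judged against them. In the fit over regions of at least 5 libraries, LPS against DMSO gave 0 calls without centring and 0 to 1 with each library left out, and the exact test gave 0 calls in any contrast. The causes were not tested.

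The replicate numbers did not pair the libraries (correlations of same-numbered libraries -0.00963 to 0.0141, with 2 of 9 libraries closest to their own number). With a replicate block the joint exact permutation p was 0.0278 for Tiparp and 0.139 for Arnt, and limma called 0 of the 4 member regions shared by all 9 libraries. In the added fit over regions of at least 5 libraries the block gave 0 calls for LPS against DMSO (Arnt at 44.8 kb, adjusted p = 0.0621) and 1 for LPS+Skatole against DMSO (0.0168). Shallow DMSO libraries limit the detection of sites under 7.34 times the background.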
